A study of Rattus norvegicus with 3 samples.

Results

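The Rab GTPases are a family of small proteins that direct membrane traffic, and their transcripts were measured in the blood cells of running rats. Members were the probe set rows that carried exactly 1 gene symbol made of Rab, a number and an optional letter, with the brightest row standing for each symbol. This gave 52 genes, of 13893 genes on the array, from 86 of its 31099 probe sets. The rows for Rab1b and Rab5a also carry a second symbol, and Rab29 stands under its older symbol Rab7l1, so these 3 genes were not members. The samples were peripheral blood mononuclear cells of male Sprague–Dawley rats aged 2 months. The groups were a downhill treadmill running group, an uphill treadmill running group and a control group whose treatment the labels do not describe further. Each group had 1 array, so there is no replicate spread, no test was possible, and each difference compares these 3 arrays and not the conditions. The labels give neither the number of animals pooled on an array, nor the running programme, nor when blood was drawn.

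A Rab protein is a switch that is active on a membrane when it holds GTP and idle in the cytosol when it holds GDP. Exchange factors load GTP, GTPase-activating proteins end the signal, and effectors such as tethers and motor adaptors bind the active form. Each Rab marks its own compartment, so the set of Rabs that a leukocyte expresses reflects its routes for secretion, uptake, recycling and degradation. In blood cells Rab27a is known for the release of cytotoxic granules, Rab27b for platelet granules, and Rab5 and Rab7 proteins for the maturation of phagosomes.

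Values are intensities on a linear scale, made with RMA, and each probe set also carries a present, marginal or absent call. The arrays do not share identical medians, the lowest value on each is 1, and any rescaling after RMA is not recorded. The arrays were close in brightness, with medians over all probe sets of 217 to 229 and 52.4% to 54.4% of probe sets called present. The cell type markers were those of a mixed preparation. All 10 natural killer markers, all 7 B cell markers on the array and 11 of 12 T cell markers were called present on every array, and Cd4 was called present on none. Monocyte markers summed to 58159 on the downhill array, 53886 on the uphill array and 33056 on the control array, with 12, 11 and 11 of 14 called present and Cd163 and Ms4a7 present on none. Markers of cells outside the mononuclear fraction were also measured. Platelet markers summed to 57277, 61978 and 68297 on the downhill, uphill and control arrays, and neutrophil markers to 16176, 33201 and 36057. Red cell markers summed to 3993 on the downhill array, 24424 on the uphill array and 5375 on the control array, with Klf1 present on none. Fewer cells of a type and less RNA per cell cannot be told apart in such samples.

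Most Rab genes were measurable in these cells. Of the 52 members, 36 were called present on all 3 arrays, 5 on 1 or 2 arrays and 11 on none. Present on all arrays were 69.2% of the members and 58.2% of all genes. A gene was compared where the brighter of the arrays reached an intensity of 353, the median of all gene values, which kept 37 members in at least 1 comparison. The other 15 stayed below that floor and ranged from 48.0 to 341.

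The Rab family as a whole hardly differed between the arrays, and Rab32 and Rab20 were the members that differed by 1.5-fold or more from control. On the downhill array 1 of 36 members was at least 2-fold higher than on the control array, where 0.826% of the 7265 genes compared were, and 0 were at least 2-fold lower, where 0.275% of genes were. At 1.5-fold the counts were 2 higher and 0 lower, beside 3.33% and 2.34% of all genes. On the uphill array 0 of 36 members were 2-fold higher or lower than control, where 0.833% and 0.464% of 7320 genes were. At 1.5-fold 1 member was higher and 0 were lower on the uphill array, beside 3.28% and 3.07% of all genes. With so few members, these shares are near the background and are read as a description only.

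The median log2 difference of the members from control was -0.03 and 0.03 on the downhill and uphill arrays. Over all genes compared it was -0.01 and 0.03. The median size of the difference, whatever its sign, was 0.10 and 0.13 on the downhill and uphill arrays for Rab genes, against 0.18 and 0.18 for all genes. On the downhill array 30 of 36 members lay within 1.2-fold of control (83.3%, against 67.5% of all genes), and on the uphill array 26 of 36 did (72.2%, against 66.0%). The median intensity over genes was 616 for the members and 354 for all genes, and the part of brightness in this was not tested.

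**Figure D1:**
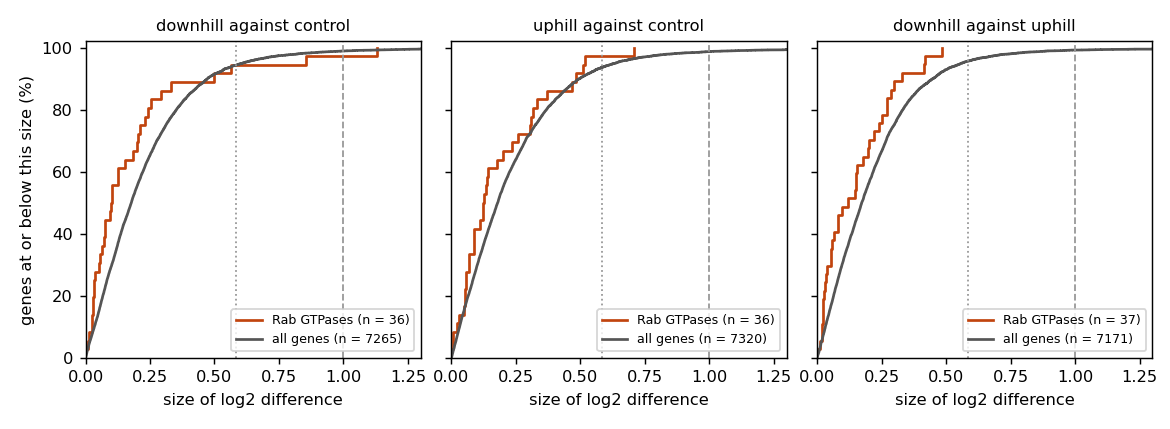
Cumulative share of genes (y axis, %) by the size of their log2 difference (x axis) in each comparison, for Rab GTPases (red) and all genes (grey) above the floor. Dotted and dashed lines mark 1.5-fold and 2-fold. The Rab curve lies left of the curve for all genes over most small differences.

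Rab32 was the member with the largest difference. Rab32 works with its paralog Rab38 in building lysosome-related organelles, and in macrophages it acts on vacuoles that hold bacteria. Its intensity was 817 and 611 on the downhill and uphill arrays, against 374 on the control array, and it was called present on all 3. The downhill array was 2.19-fold higher than control (log2 difference 1.13) and the uphill array 1.64-fold higher (0.71). Both running arrays lay above the control array, and the downhill array lay highest. Counted from the top, the difference ranked 44 of 7265 genes on the downhill array and 150 of 7320 on the uphill array. Rab32 has 1 probe set, aligned by the deposited annotation to chromosome 1 of the Rnor3.4 assembly (5203733 to 5204387, minus strand), so no second probe set bears on the value. Rab38 was dim, 271 and 247 on the downhill and uphill arrays, against 210 on the control array, where it was not called present.

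Rab20 had the next largest difference from control. Rab20 is a macrophage Rab of early endosomes and phagosomes. Its brightest probe set read 2335 and 1672 on the downhill and uphill arrays, against 1292 on the control array. That was 1.81-fold higher than control on the downhill array (0.85 on the log2 scale) and 1.29-fold on the uphill array (0.37). The order of the arrays was that seen for Rab32. The ranks from the top were 96 of 7265 and 730 of 7320.

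The other Rab20 probe sets gave smaller or opposite differences. The second probe set read 631 and 466 on the downhill and uphill arrays, against 551 on the control array, with log2 differences of 0.20 and -0.24. The dimmest of the 3 gave -0.01 and -0.36 from 154, 121 and 155 on the downhill, uphill and control arrays. The brightest probe set aligns to chromosome 16 of Rnor3.4 from 82894548 to 82895022 on the plus strand. The second aligns 5′ of it on the same strand, from 82871036 to 82871356. The dimmest aligns from 82894066 to 82894634 on the minus strand, opposite to the other two. The uphill difference of Rab20 therefore depends on the probe set. The brightest and the second probe set both put the downhill array above the uphill array (0.48 and 0.44 on the log2 scale). The dimmest gave 0.35, but it was below the floor and aligns to the strand opposite to the gene, so it is not counted with them.

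Markers of several cell types, and a sign of RNA quality, ran in the same order of arrays as these genes or in the opposite one. The summed monocyte markers were 58159 and 53886 on the downhill and uphill arrays, against 33056 on the control array. The median log2 difference of the monocyte markers was 1.01 on the downhill array (10 of 14 members compared) and 0.53 on the uphill array. Natural killer markers summed to 36798 and 34798, against 30726 on the control array, with median log2 differences of 0.37 and 0.24 and all 10 compared. Neutrophil markers ran the other way, with medians of -1.17 and -0.33 over 7 compared, as did platelet markers, with medians of -0.36 and -0.22. The actin 3′ to 5′ signal ratio, which rises as RNA degrades, was 2.87 and 2.68 on the downhill and uphill arrays, against 2.39 on the control array. The part of these in the Rab32 and Rab20 differences was not tested.

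Rab21 was the member with the largest difference in the other direction among those above the floor. Rab21 resides on early endosomes and carries integrins, the adhesion receptors of leukocytes. It read 2635 and 2612 on the downhill and uphill arrays, against 3722 on the control array. The running arrays were nearly equal, 1.41-fold and 1.42-fold lower than control (log2 differences of -0.50 and -0.51), which is short of the 1.5-fold mark. From the bottom it ranked 279 of 7265 on the downhill array and 348 of 7320 on the uphill array. It has 1 probe set, aligned to chromosome 7 of Rnor3.4 (54550244 to 54550729, minus strand).

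**Figure D2:**
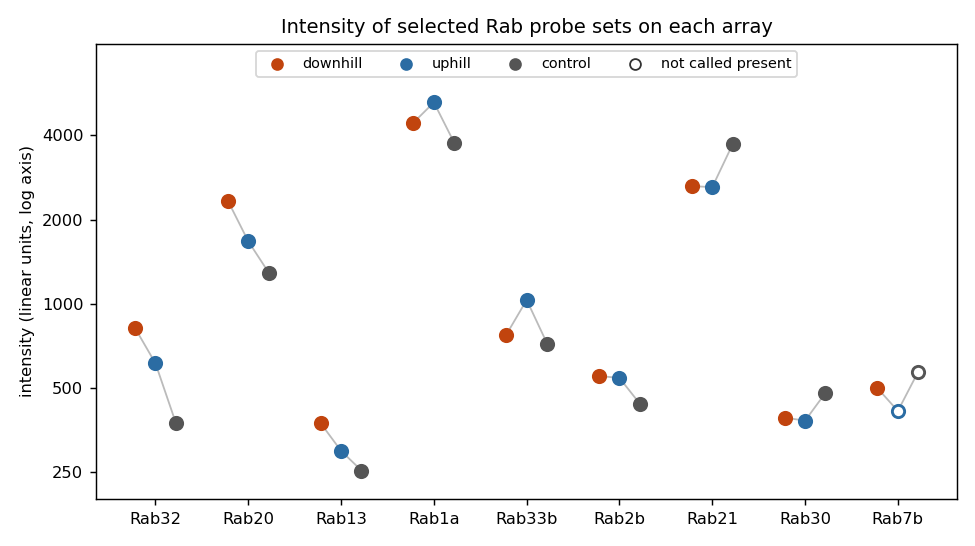
Intensity (y axis, linear units on a log axis) of 9 Rab probe sets on the downhill, uphill and control arrays, 1 point per array, with open points where the probe set was not called present. Rab32 and Rab20 are highest on the downhill array and Rab21 on the control array. Heights of different genes are not comparable, since brightness depends on the probes.

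The promoters of these 3 genes are shown because Rab32 and Rab20 had the largest differences from control and Rab21 the largest in the other direction among the members called present. Each window runs from 250 bases before to 50 bases after the RefSeq gene start on GRCr8, and is printed 5′ to 3′ on the strand of the gene. Capitals mark matches on either strand to CACGTG (E-box), GGGCGG (GC box) or AGGAAGT (ETS site). The windows are chr1:6781209-6781508 (minus strand) for Rab32, chr16:84721177-84721476 (plus strand) for Rab20 and chr7:52814894-52815193 (minus strand) for Rab21.
Rab32: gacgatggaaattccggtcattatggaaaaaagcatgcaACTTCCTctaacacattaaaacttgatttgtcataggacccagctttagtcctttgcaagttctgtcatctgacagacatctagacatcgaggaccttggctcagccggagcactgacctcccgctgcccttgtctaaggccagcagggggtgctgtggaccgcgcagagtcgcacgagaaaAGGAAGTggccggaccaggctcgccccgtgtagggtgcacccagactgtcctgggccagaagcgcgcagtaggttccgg
Rab20: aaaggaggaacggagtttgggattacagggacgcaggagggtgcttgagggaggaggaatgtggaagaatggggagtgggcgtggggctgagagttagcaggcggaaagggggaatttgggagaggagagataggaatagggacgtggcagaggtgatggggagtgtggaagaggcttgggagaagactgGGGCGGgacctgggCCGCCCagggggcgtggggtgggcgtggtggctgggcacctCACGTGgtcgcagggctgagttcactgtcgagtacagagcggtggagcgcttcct
Rab21: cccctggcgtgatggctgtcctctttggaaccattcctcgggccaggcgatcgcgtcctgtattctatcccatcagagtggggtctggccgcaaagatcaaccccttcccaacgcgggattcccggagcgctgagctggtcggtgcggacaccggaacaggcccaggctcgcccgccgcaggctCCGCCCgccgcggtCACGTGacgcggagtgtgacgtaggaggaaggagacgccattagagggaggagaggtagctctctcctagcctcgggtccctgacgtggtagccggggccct

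The Rab32 window has 2 ETS matches, 211 and 29 bases before the start, and no GC box. The Rab20 window has an E-box beginning 5 bases before the start and GC boxes at 60 and 46 bases before it. The Rab21 window has an E-box at 52 and a GC box at 66 bases before the start. Rab20 and Rab21, which differed from control in opposite directions, thus both hold an E-box, and a match is no evidence of binding.

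Over the 43 members with a RefSeq window, the GC content had a median of 63.7%, against 55.3% for the windows of 19005 protein-coding genes. A GC box stood in 34 of the 43 windows (79.1%), against 43.1% of protein-coding windows. It stood in 25 of 32 members above the floor and in 9 of 11 below it, so it was about as frequent among the Rabs that were dim in these cells. E-boxes were found in 3 Rab windows (6.98%, against 7.27%), those of Rab20, Rab21 and Rab31, and ETS matches in 3 (6.98%, against 8.08%). AP-1 sites (TGANTCA) stood in 4 (9.30%, against 6.65%), CCAAT boxes (CCAAT) in 16 (37.2%, against 38.4%) and cyclic AMP response elements (TGACGTCA) in 1 (2.33%, against 2.22%). None of these matches overlaps another in the 3 windows printed.

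Of the Rabs of the endoplasmic reticulum and Golgi, Rab1a and Rab33b were higher mainly on the uphill array by their brightest probe sets. Rab1a, which moves cargo between these compartments, read 4446 and 5252 on the downhill and uphill arrays, against 3761 on the control array. It was 1.18-fold higher than control on the downhill array and 1.40-fold higher on the uphill array. A second Rab1a probe set, aligned to 1 place, gave log2 differences of 0.38 and 0.45, with the running arrays close to each other. The brightest gave 0.24 and 0.48 and aligns to 6 places in the genome. Rab33b, a Golgi Rab that also binds the autophagy protein Atg16l1, read 774 and 1031 on the downhill and uphill arrays, against 720 on the control array. It was 1.07-fold and 1.43-fold higher than control, from 1 probe set.

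Rab2b, a Golgi Rab, was higher by nearly the same factor on both running arrays. It read 551 and 542 on the downhill and uphill arrays, against 438 on the control array, 1.26-fold and 1.24-fold higher, but its second probe set gave log2 differences of 0.09 and 0.08. Its paralog Rab2a read 3015 and 2852, against 3078 on the control array. The second Rab2a probe set gave log2 differences of -0.32 and 0.01, beside -0.03 and -0.11 for the brightest. Rab30, another Golgi Rab, was lower on both running arrays, 391 and 381 on the downhill and uphill arrays, against 479 on the control array (1.23-fold and 1.26-fold). Its second probe set, below the floor, gave log2 differences of 0.12 and -0.09. Rab6a, which returns membrane from endosomes to the Golgi and within it, read 2451 and 2566 on the downhill and uphill arrays, against 2820 on the control array. Rab18, of the endoplasmic reticulum and lipid droplets, read 1118 and 1236, against 1076 on the control array. Its probe set aligns to 3 places. Rab33a, a paralog of Rab33b, was near the floor at 324 and 366, against 332 on the control array. Over the compared members of this group, 4 of 7 were above control on the downhill array and 5 of 8 on the uphill array, with medians of 0.06 and 0.17 on the log2 scale.

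Apart from Rab20 and Rab21, the Rabs of early endosomes and fast recycling differed little by their brightest probe sets. Rab5c, which fuses incoming vesicles with early endosomes, read 1602 and 1580 on the downhill and uphill arrays, against 1519 on the control array, and its probe set aligns to 2 places. Its paralog Rab5b read 1185 and 1359, against 1294 on the control array. The second of 5 Rab5b probe sets gave log2 differences of -0.26 and -0.41, beside -0.13 and 0.07 for the brightest. Rab22a, a sorting Rab of the same organelle, read 894 and 1027, against 1066 on the control array, and was 1.19-fold lower on the downhill array. Rab4b, of fast recycling, was slightly higher on both running arrays, at 676 and 715, against 607 on the control array (1.11-fold and 1.18-fold). Rab31, which links the Golgi with endosomes, read 1136 and 1385 on the downhill and uphill arrays, against 1157 on the control array. Rab35, another recycling Rab, was near equal at 882, 860 and 861 on the downhill, uphill and control arrays. The medians of the group were 0.00 and 0.06, with 4 of 8 and 5 of 8 members above control.

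The Rabs of slow recycling and of transport to the cell surface had mostly small differences. Rab8a, which carries cargo to the plasma membrane, read 4495 and 4485 on the downhill and uphill arrays, against 4662 on the control array. Rab11a, the main Rab of recycling endosomes, read 4347 and 4402, against 4672 on the control array, although its second probe set gave log2 differences of -0.50 and -0.22. Rab10 read 3936 and 4385, against 4026 on the control array, and Rab8b 3267 and 3010, against 3111. The second Rab10 probe set gave log2 differences of -0.02 and -0.26, beside -0.03 and 0.12 for the brightest. Rab14, of the Golgi and endosomes, read 2949 and 2654, against 2920 on the control array. Its second probe set gave log2 differences of 0.10 and -0.28, beside 0.01 and -0.14 for the brightest. Rab11b, a close relative of Rab11a, read 2864 and 2819, against 2924 on the control array.

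Rab13, which delivers junction and surface proteins, was the exception in this group. It read 373 and 297 on the downhill and uphill arrays, against 253 on the control array, and was 1.48-fold higher than control on the downhill array. Its uphill and control values were both below the floor, and the gene has 1 probe set. Rab12, which directs transferrin receptor to degradation, read 1353 and 1611, against 1536 on the control array. Its probe set aligns to chromosome 1 of Rnor3.4, whereas the gene lies on chromosome 9 of GRCr8, so its identity is less certain. The epithelial Rab25 was near the floor at 376 and 369, against 402 on the control array. Rab15, a Rab of recycling endosomes, read 353 and 367, against 369, and was called present on no array. The medians of the group were -0.04 on the downhill array (3 of 10 members above control) and -0.05 on the uphill array (2 of 9).

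Among the Rabs of late endosomes and lysosomes, Rab32 stood alone. Rab7a, which drives fusion with lysosomes, read 3008 and 3339 on the downhill and uphill arrays, against 3285 on the control array. Its second probe set gave a log2 difference of -0.28 on the uphill array, beside 0.02 for the brightest. Rab9a, which returns receptors from late endosomes to the Golgi, read 1373 and 1322, against 1445 on the control array. Rab24, linked to autophagy, was 1.16-fold lower than control on the downhill array, at 2480, and close to it on the uphill array, at 3051, against 2870 on the control array. Rab7b, another late endosome Rab, read 498 and 413 on the downhill and uphill arrays, against 571 on the control array. It was called present on the downhill array alone, so no fold is given for it against control. Without Rab32 and Rab7b, the compared members of this group lay between -0.21 and -0.07 on the log2 scale on the downhill array, and between -0.13 and 0.09 on the uphill array.

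The Rabs of secretory granules did not reach 1.5-fold either way. Rab27a, needed for cytotoxic granule release, read 2715 and 2905 on the downhill and uphill arrays, against 2734 on the control array. The second Rab27a probe set gave log2 differences of -0.14 and -0.18, beside -0.01 and 0.09 for the brightest. Rab27b, known from platelet granules, was lower on both running arrays, at 1443 and 1497, against 1694 on the control array (1.17-fold and 1.13-fold). Summed platelet markers were also lower there, at 57277 and 61978 against 68297, and their part in the Rab27b difference was not tested. The Rab27b probe set aligns to 2 places. Rab3d, of regulated secretion, read 474 and 572 on the downhill and uphill arrays, against 463 on the control array (1.02-fold and 1.24-fold higher). Rab3a, Rab3b and Rab3c, the secretory Rabs of neurons and endocrine cells, were called present on no array by their brightest probe sets.

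In the remaining group, Rab28, a Rab of cilia, was nearly equal at 2654 on the downhill array, 2698 on the uphill array and 2642 on the control array. Rab40c, which recruits ubiquitin ligases, was equally level at 556, 544 and 546. Rab19 was above the floor at 466 and 542, against 436 on the control array, but was called present on no array. Rab3c read 48.0 and 48.5 on the downhill and uphill arrays, against 55.4 on the control array.

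The 15 members below the floor were not compared. Rab4a, of fast recycling, and Rab26, of secretory granules, were called present on all 3 arrays, at 239 and 289 against 242 on the control array for Rab4a and at 172 and 185 against 199 for Rab26. Rab9b, Rab34, Rab38 and Rab43 were called present on 1 or 2 arrays. The other 9 were called present on none by the brightest probe set, namely Rab3a, Rab3b, Rab3c, Rab6b, Rab17, Rab23, Rab36, Rab39a and Rab40b.

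**Figure D3:**
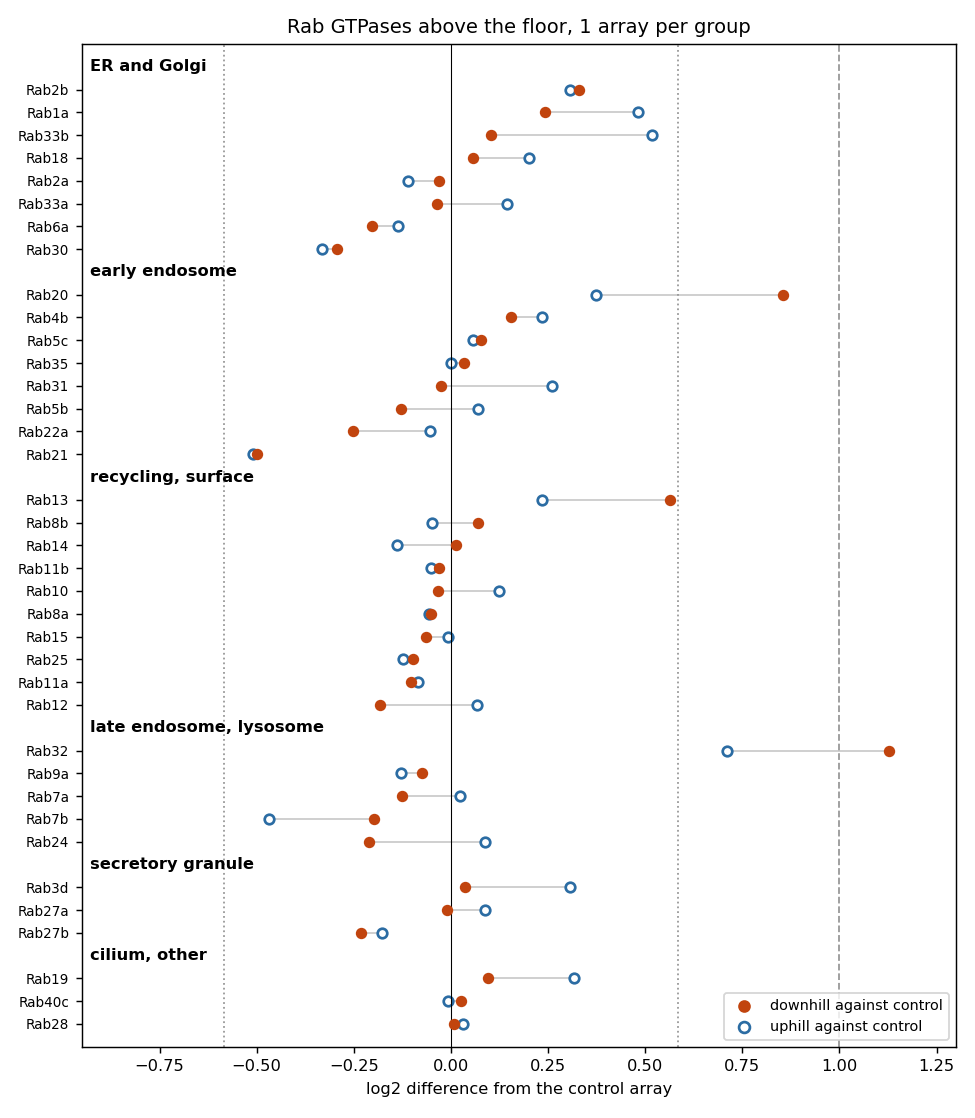
Log2 difference from the control array (x axis) for the 37 Rab genes that reached the floor on any array, grouped by the compartment they serve, on the downhill array (filled red) and the uphill array (open blue). Dotted lines mark 1.5-fold and the dashed line 2-fold. Rab32 alone passes 1.5-fold on both running arrays, and Rab20 passes it on the downhill array. Both running arrays share the control array.

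The running arrays were also compared directly, with 1 array each, so the values describe these arrays and cannot show whether slope mattered. Of 37 members, 0 differed by 1.5-fold in either direction, where 2.16% of 7171 genes were higher and 2.22% lower on the downhill array. At 2-fold the members' count was also 0, beside 0.335% and 0.474%. The largest differences upward on the downhill array were Rab20 at 1.40-fold (2335 against 1672 on the uphill array), Rab32 at 1.34-fold (817 against 611) and Rab13 at 1.26-fold (373 against 297). The largest downward were Rab33b at 1.33-fold (774 against 1031), Rab24 at 1.23-fold (2480 against 3051) and Rab31 at 1.22-fold (1136 against 1385). Rab3d was 1.21-fold lower on the downhill array, Rab12 1.19-fold and Rab1a 1.18-fold. The dim second Rab31 probe set went the other way (0.22 on the log2 scale, against -0.29 for the brightest). Second probe sets that reached the floor also reversed sign for Rab7a (0.27 against -0.15), Rab10 (0.25 against -0.16) and Rab2a (-0.33 against 0.08). That of Rab27a reversed it too, while those of Rab1a, Rab2b, Rab8b, Rab11a, Rab14 and Rab20 kept the sign of the brightest. The second Rab5b probe set also reversed it, but it reached the floor on the control array alone. The median log2 difference was -0.02 over the members and -0.03 over all genes.

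Probe sets of the same gene give the one technical check available. Of the members, 24 had several probe sets, and for 11 of them another probe set also reached the floor. Between the 2 brightest of these, log2 differences from control disagreed by a median of 0.13 and 0.23 on the downhill and uphill arrays. The largest disagreement was that of Rab20, 0.66 and 0.61 on the downhill and uphill arrays. Over all 1324 genes with such a pair, the medians were 0.15 and 0.21 and the 95th percentiles 0.61 and 0.77. This disagreement between probe sets of the same arrays holds no spread between animals. The dimmest Rab14 probe set, at 281, 99.0 and 194 on the downhill, uphill and control arrays, gave log2 differences of 0.54 and -0.97 while the brightest gave 0.01 and -0.14.

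**Figure D4:**
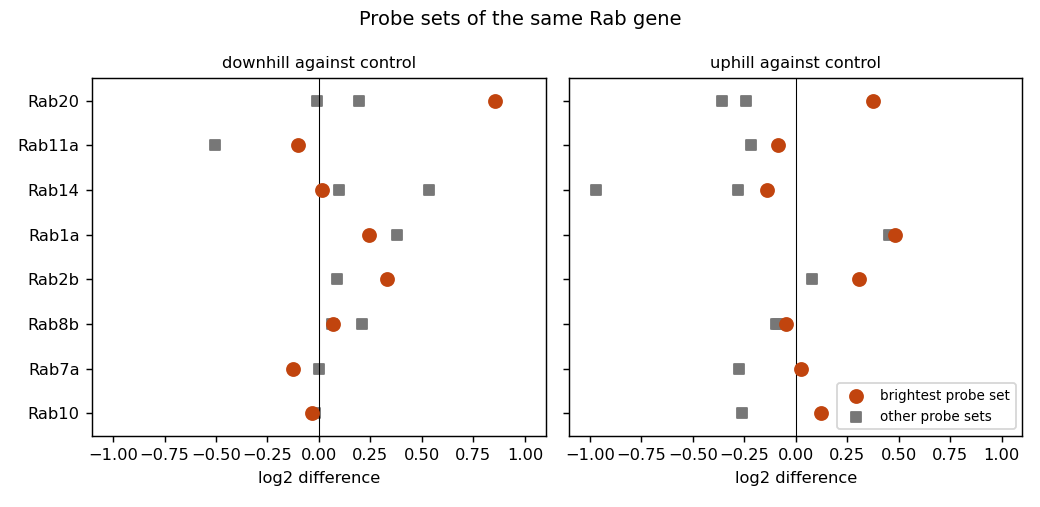
Log2 difference from the control array (x axis) for every probe set of 8 Rab genes (y axis), with the brightest probe set as a red circle and the others as grey squares, on the downhill (left) and uphill (right) arrays. The other Rab20 probe sets lie well below the brightest, and those of Rab1a lie together.

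The proteins that handle all Rabs differed little. For the lists that follow, the medians over all genes were -0.01 and 0.03 on the downhill and uphill arrays, with 3682 of 7265 and 3332 of 7320 genes below control. Over all genes, 3.33% were 1.5-fold higher and 2.34% lower on the downhill array, and 3.28% higher and 3.07% lower on the uphill array. The escort, prenylation and GDP-dissociation list, which inserts Rabs into membranes and removes them, had 5 members compared, and 0 of them differed 1.5-fold on either running array. Its median log2 difference was 0.06 and 0.14 on the downhill and uphill arrays.

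Of the exchange factors, Rin2, which activates Rab5, was higher on both running arrays. It read 1477 and 1548 on the downhill and uphill arrays, against 752 on the control array, 1.96-fold and 2.06-fold higher, while its dim second probe set gave log2 differences of 0.08 and 0.27. Rgp1, which with Ric1 activates Rab6, read 833 and 1265, against 602 on the control array, and was 2.10-fold higher on the uphill array. Dennd2c, a DENN domain exchange factor, read 612 and 761, against 944 on the control array, and was 1.54-fold lower on the downhill array. In all, 1 of 28 exchange factors was 1.5-fold higher and 1 lower on the downhill array, and 2 of 29 were higher and 0 lower on the uphill array, beside 3.33%, 2.34%, 3.28% and 3.07% of all genes. The medians were -0.12 with 20 of 28 below control on the downhill array and 0.05 with 13 of 29 below on the uphill array.

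Of 18 GTPase-activating proteins compared, 0 differed 1.5-fold from control, with medians of -0.06 and -0.05 on the downhill and uphill arrays. Of the effectors, 0 were 1.5-fold higher on either running array and 2 of 28 were 1.5-fold lower on the downhill array, where 2.34% of all genes were. Bicd2, an adaptor that links Rab6 vesicles to dynein, read 1039 and 1171 on the downhill and uphill arrays, against 1649 on the control array (1.59-fold lower on the downhill array). Osbpl1a, the cholesterol-sensing effector of Rab7, read 2243 and 2320, against 3440 on the control array (1.53-fold lower on the downhill array). Its 3 other probe sets were also below control on the downhill array (-0.51 to -0.34 on the log2 scale). The effector medians were -0.10 and -0.12, and 18 of 28 and 17 of 27 effectors lay below control.

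In the Arf, Arl and Ras families of small GTPases, single genes differed by 1.5-fold or more from control. Of 20 Arf and Arl genes, 1 was 1.5-fold higher on the downhill array and 1 was 1.5-fold lower on the uphill array. Of the Ras family, 1 of 12 was 1.5-fold higher on the downhill array and 0 of 13 differed on the uphill array. Over all genes, 3.33% were higher on the downhill array and 3.07% lower on the uphill array. Among the Arf and Arl proteins, Arl11 read 897 and 486 on the downhill and uphill arrays, against 357 on the control array, and was 2.51-fold higher than control on the downhill array. Arl13b, of cilia, was 1.57-fold lower on the uphill array (260 against 407 on the control array). Of the Ras family, Gem was 1.53-fold higher on the downhill array, at 930 against 608, and read 535 on the uphill array. The family medians on the downhill and uphill arrays were 0.10 and 0.09 for Arf and Arl and 0.11 and 0.07 for Ras. Above control were 15 of 20 and 13 of 20 Arf and Arl genes on these arrays, and 8 of 12 and 9 of 13 Ras genes. Over all genes, 3583 of 7265 and 3988 of 7320 were above control.

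**Figure D5:**
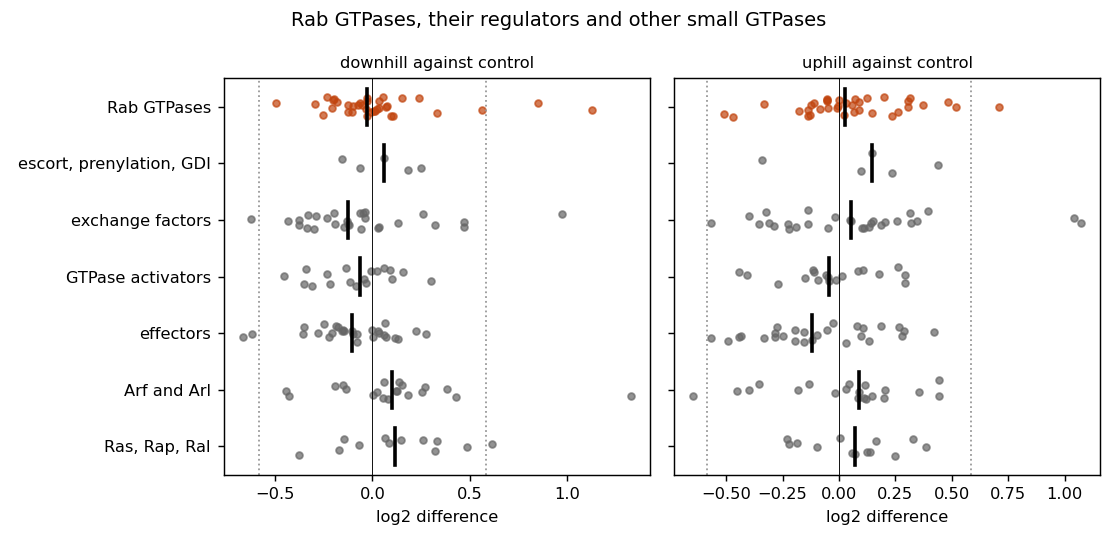
Log2 difference from the control array (x axis) on the downhill (left) and uphill (right) arrays for Rab GTPases (red), their regulators and effectors and the Arf, Arl and Ras families (grey), 1 point per gene above the floor, with the median of each list as a black bar. Dotted lines mark 1.5-fold. List medians lie near 0, and single genes such as Rab32, Rin2, Rgp1 and Arl11 lie outside.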

How the data were processed

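RNA of peripheral blood mononuclear cells (100 ng per sample, per the labels' protocols) was measured on Affymetrix 230 2.0 rat arrays, 1 per group. The authors deposited intensity values made with RMA, per the submitters' processing notes, on a linear scale, with detection calls of unstated algorithm. The second deposited table held the same values in all 93297 cells (tolerance 1e-06). Values were converted to log2 here. Symbols were updated through Entrez numbers (GRCr8), the probe set with the highest mean log2 value stood for a gene, and genes were compared where the brighter array reached 353. Folds are ratios of intensity. No test was possible, and the number of arrays limits the precision. The members and gene lists were chosen with earlier results of these data known. All 37 members above the floor are named, and of other lists each gene that differed 1.5-fold, except for some results that are not reported here. Alternatives covered fold, floor, scaling (quantile, cyclic loess with limma 3.58.1, centring), probe set choice and calls. Counting was tested on simulated data. Alignments (Rnor3.4) are from the deposited annotation and promoters from RefSeq.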

Additional observations from a re-analysis of the deposited data

How the results depend on the processing

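No paired analysis was possible because each group had 1 array. At 1.5-fold in place of 2-fold, the count of Rab genes above control became 2 on the downhill array (1 at 2-fold) and 1 on the uphill array (0 at 2-fold). With the floor at the 75th percentile (964) the downhill count became 0, because the brighter Rab32 value, 817, is below that floor. Under the 6 other alternatives and without a floor Rab32 was the one gene counted 2-fold higher on the downhill array. Of 822 recomputed differences of single genes, 808 moved by less than the median disagreement of 2 probe sets of a gene. Many of these could not move, because the floor, call and suffix settings kept the same probe set and its values. Averaging could not move a gene with 1 probe set, such as Rab32. The other 14 all came from averaging a gene's probe sets, where 92 values stayed within that disagreement. With that setting Rab20 stood at 0.35 on the downhill array and at -0.08 on the uphill array, against 0.85 and 0.37 with the brightest probe set. The members' median stayed between -0.04 and -0.01 on the downhill array and between -0.03 and 0.03 on the uphill array, and between -0.06 and 0.02 for downhill against uphill, so these medians near 0 changed sign with the setting in the last 2 comparisons.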

Other observations

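The Rab29, Rab5a and Rab1b rows lay outside the rule on symbols and did not reach 1.5-fold from control. Rab29 (Rab7l1 in the deposited annotation), a lysosomal and Golgi Rab that acts with the kinase Lrrk2, read 2781 and 2895 on the downhill and uphill arrays, against 2482 on the control array (1.12-fold and 1.17-fold higher). The brightest of 2 probe sets shared by Rab5a and a second locus read 1518 and 1182, against 1313 on the control array, with log2 differences of 0.21 and -0.15. Of 7 probe sets shared by Rab1b and a second locus, the brightest read 1263 and 1043 on the downhill and uphill arrays, against 1311 on the control array, with log2 differences of -0.05 and -0.33.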
